A study of Mus musculus with 4 samples.

Results

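A set of 9 genes associated with the resting or naive state of lymphocytes, Klf2, Tcf7, Lef1, Il7r, Bach2, Satb1, Foxp1, Foxo1 and Id3, was followed across the cells of tumour-draining lymph nodes. The 9 members were taken by symbol from the 31053 genes of the deposited matrix, and all 9 had counts in every comparison made here. The nodes came from C57BL/6J mice carrying B16F10 tumours, a mouse melanoma line, on both upper anterior thighs. The 2 control mice received nothing. The 2 treated mice drank indoximod, an inhibitor of the indoleamine 2,3-dioxygenase pathway, at 2 mg/ml from day 9, received 350 ug ibrutinib, an inhibitor of Bruton's tyrosine kinase, intraperitoneally each day from day 9, and were given 150 mg/kg of the alkylating drug cyclophosphamide intraperitoneally on day 10. Inguinal nodes of all 4 mice were taken 2 days after that injection and profiled by droplet single-cell RNA sequencing with 3′ end counting. The barcodes carried library numbers 1 to 4, and nothing in the sources used here tied a number to a mouse or a treatment. Treated and control mice were therefore not compared, the pooled matrix counted as 1 sample, and no p-value was computed. Values are given per library or pooled over the 4 libraries.

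Resting lymphocytes are held in a long-lived, small, non-dividing state by a set of transcription factors and by survival signals from outside. FOXO1 drives transcription of Il7r, which encodes the receptor chain for the T cell survival cytokine interleukin 7, and of Klf2, whose product in turn keeps up the receptors that let lymphocytes leave and re-enter nodes. TCF-1 (encoded by Tcf7) and LEF-1 are related factors that act in the WNT pathway and maintain naive and stem-like T cells, BACH2 and FOXP1 restrain effector differentiation, SATB1 organises chromatin in T cells, and ID3 is an inhibitor of E protein transcription factors that antigen receptor signalling induces.

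Libraries 1 to 4 held 7002, 6978, 7013 and 9831 barcodes with 39589629, 39733183, 40339336 and 53643414 unique molecular identifiers (UMIs, counts of captured RNA molecules). With 300 genes or more and no more than 10% mitochondrial UMIs, 26096 of 30824 barcodes stayed, with a median of 5229 to 5558 UMIs per barcode by library. Marker genes outside the 9 members placed 11745 of these (45.0%) in 19 cell classes, of which 16 had at least 50 cells. T cells needed 2 CD3 UMIs and no B lineage UMI, and B cells 3 UMIs over at least 2 B lineage genes, among them Cd79a, Cd79b and Ms4a1, and no CD3 UMI. Resting cells had no UMI of the genes that gate activation, division and, for T cells, memory. Resting CD4 cells also had none of the follicular helper genes or of a further list of genes set against resting CD4 cells. Resting B cells had none of the germinal centre genes. The other 14351 barcodes were left unclassed, among them T cells without a Cd4 or Cd8 UMI and barcodes with both CD3 and B lineage UMIs. A total of 61 barcode sequences occurred in more than 1 library. Levels are UMIs per 1000000 UMIs of a class (CPM), with 95% exact Poisson intervals where given, which cover counting error only. To be called higher or lower in one class than in another, a gene had to differ by 1.5-fold or more, always the same way, in each library holding 10 or more of its counts in the pair of classes, and 3 or more libraries had to qualify. That is a rule of size and repetition, not a significance test.

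Sequences before the RefSeq start are shown for 3 members with different ranges across cell types. Lef1 was nearly limited to T cells, Il7r was also found in NK and mature dendritic cells, and Klf2 was high in T and B cells. They come from RefSeq's promoter table (GRCm38.p6) and were cut to the bases outside every exon that GENCODE vM21 annotates for the gene. Each reads 5′ to 3′ on the gene's strand, with motif matches in capitals. The 6 motifs below were searched on both strands: a FOXO core (GTAAACA), a TCF and LEF core (CTTTGAT), an EGR site (GCGGGGGCG), a GC box (GGGCGG), an ETS core (CCGGAAG) and a CACCC box (CCACACCC).
Il7r, chr15:9529877-9530040, minus strand: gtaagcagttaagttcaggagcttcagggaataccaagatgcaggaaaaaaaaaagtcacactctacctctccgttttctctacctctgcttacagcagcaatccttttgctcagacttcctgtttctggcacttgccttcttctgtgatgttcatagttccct
Lef1, chr3:131110047-131110296, plus strand: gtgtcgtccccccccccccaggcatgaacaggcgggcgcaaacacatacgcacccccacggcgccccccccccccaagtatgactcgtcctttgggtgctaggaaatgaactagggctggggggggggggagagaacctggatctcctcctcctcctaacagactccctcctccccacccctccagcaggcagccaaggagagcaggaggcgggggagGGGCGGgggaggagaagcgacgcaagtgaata
Klf2, chr8:72318812-72319032, plus strand: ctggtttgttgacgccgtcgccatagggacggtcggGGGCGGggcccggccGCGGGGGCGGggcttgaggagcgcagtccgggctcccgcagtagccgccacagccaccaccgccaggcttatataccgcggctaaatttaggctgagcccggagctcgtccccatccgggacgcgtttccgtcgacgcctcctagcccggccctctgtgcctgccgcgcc
The Klf2 stretch held an EGR site 199 bases before the RefSeq start and GC boxes 214 and 195 bases before it, the nearer of which overlaps the EGR site. The Lef1 stretch held a GC box 32 bases before its start. Neither the Il7r stretch nor the whole 250-base Il7r window held any of the 6 motifs. The Il7r stretch lies before the RefSeq start but inside the mm10 gene span given below (chr15:9505788-9530176, minus strand). By that span it is not upstream of the gene, unlike the Lef1 and Klf2 stretches. Of 27025 promoter windows of 250 bases, 3.09% held the FOXO core, 3.23% the TCF and LEF core, 2.56% the EGR site, 32.9% the GC box, 7.05% the ETS core and 3.19% the CACCC box. A match is a description of letters and not a site of binding. GC content was 43.9% in the Il7r stretch, 66.4% in Lef1 and 71.5% in Klf2, beside a median of 52% over the windows.

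**Figure D1:**
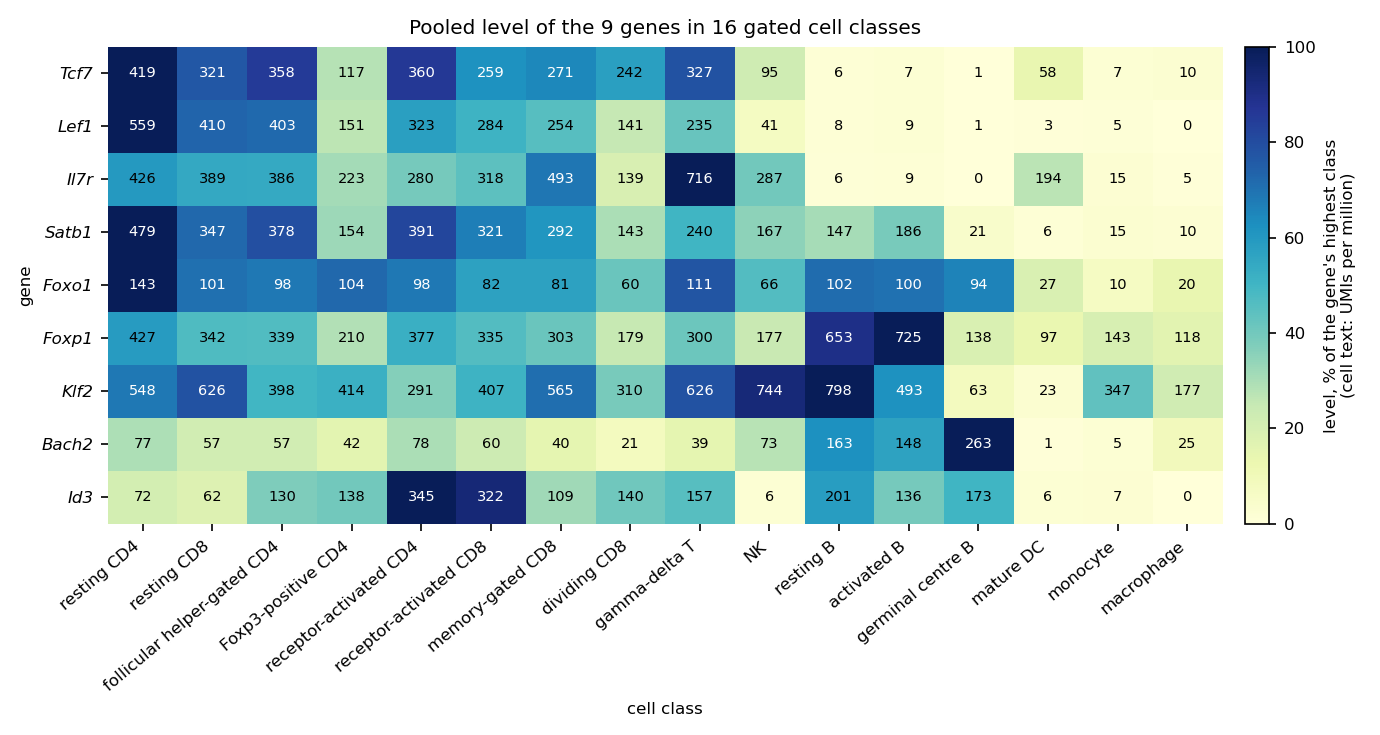
Pooled level of each of the 9 genes (rows) in the 16 cell classes with at least 50 cells (columns). The text in each cell is CPM, and the shade is the level as a percentage of the gene's own highest class. Tcf7 and Lef1 were highest in resting CD4 cells at 419 and 559, Klf2 in resting B cells at 798, Foxp1 in activated B cells at 725, Bach2 in germinal centre B cells at 263 and Id3 in receptor-activated CD4 cells at 345.

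The map of levels by class shows that the 9 genes did not share one range. Tcf7, Lef1 and Il7r were nearly limited to T cells, NK cells and, for 2 of them, mature dendritic cells. Satb1 and Foxo1 were highest in T cells and also present in B cells. Klf2 and Foxp1 were high in both lineages, and Bach2 and Id3 were higher in resting B cells than in resting T cells. Across the 16 classes, Pearson's r of log2(CPM + 10) was 0.95 between Tcf7 and Il7r, 0.94 between Tcf7 and Lef1, and -0.24 between Bach2 and Il7r. These correlations are descriptions over classes that share the same 4 libraries.

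Tcf7 (ENSMUSG00000000782, chr11:52252371-52283014, minus strand, mm10) was highest in resting CD4 cells, with 386, 427, 410 and 446 CPM in libraries 1 to 4. Resting CD8 cells held 307, 328, 330 and 318 CPM, all below the resting CD4 values. Receptor-activated CD4 cells, at 360 CPM pooled, follicular helper-gated CD4 cells, at 358, and gamma-delta T cells, at 327, had library ranges that overlapped their neighbours in this order. Foxp3-positive CD4 cells held 139, 121, 152 and 78.0 CPM, the lowest pooled level (117) of the T cell classes and without overlap with the resting CD4 values. Resting B cells held 3.79 to 8.09 CPM and germinal centre B cells 1.46 CPM from 6 counts.

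Lef1 (chr3:131110471-131224356, plus strand), the closest relative of Tcf7 among the members, was again highest in resting CD4 cells, at 548, 591, 577 and 521 CPM. It stood at 442, 423, 394 and 392 CPM in resting CD8 cells. Memory-gated CD8 cells held 265, 277, 228 and 249 CPM and Foxp3-positive CD4 cells 131, 173, 207 and 102, both without overlap with their resting counterparts. In resting B cells Lef1 stood at 7.99 CPM (95% interval 6.84 to 9.27), in mature dendritic cells at 2.51 from 7 counts, and in macrophages no count was seen, which allows up to 14.8 CPM.

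Il7r (chr15:9505788-9530176, minus strand) followed another order among T cells. Gamma-delta T cells held 947, 688, 730 and 543 CPM, all above the resting CD4 values of 433, 439, 418 and 420. Memory-gated CD8 cells held 574, 494, 486 and 432 CPM, and their range overlapped that of resting CD4 cells. NK cells ranged from 25.5 to 465 CPM over libraries of 7 to 18 cells. Dividing CD8 cells held 144, 150, 82.8 and 175 CPM, the lowest pooled level (139) of the T cell classes, and resting B cells 6.33 CPM.

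Mature dendritic cells, gated on at least 3 of Fscn1, Ccl22, Il4i1, Cacnb3 and Ccl17 without CD3 or B lineage UMIs, held 2 of these T cell genes without the third. Il7r stood at 228, 145, 190 and 209 CPM and Tcf7 at 68.9, 64.2, 55.9 and 53.2 CPM in libraries 1 to 4. Both were above every resting B value, while Lef1 was at 1.19 to 5.67 CPM in the same cells, against 4.15 to 10.8 in resting B cells. Il7r was seen in 60.6% of the 274 mature dendritic cells and Tcf7 in 32.1%, against 1.76% and 2.29% of 5513 resting B cells, at median depths of 8912 and 3643 UMIs. With each cell thinned to 1500 UMIs, the shares were 24.1% for Il7r and 6.02% for Tcf7 in mature dendritic cells and 0.810% and 0.939% in resting B cells. The 5 T cell markers outside the gates (Trac, Trbc2, Lck, Lat and Cd5) summed to 32.6 CPM in mature dendritic cells (29.7 to 35.6 by library), against 57.4 in resting B cells and 3347 in resting CD4 cells. Trac alone stood at 8.25 CPM in mature dendritic cells beside 58.5 CPM of Tcf7, and at 632 CPM in resting CD4 cells beside 419 CPM of Tcf7.

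**Figure D2:**
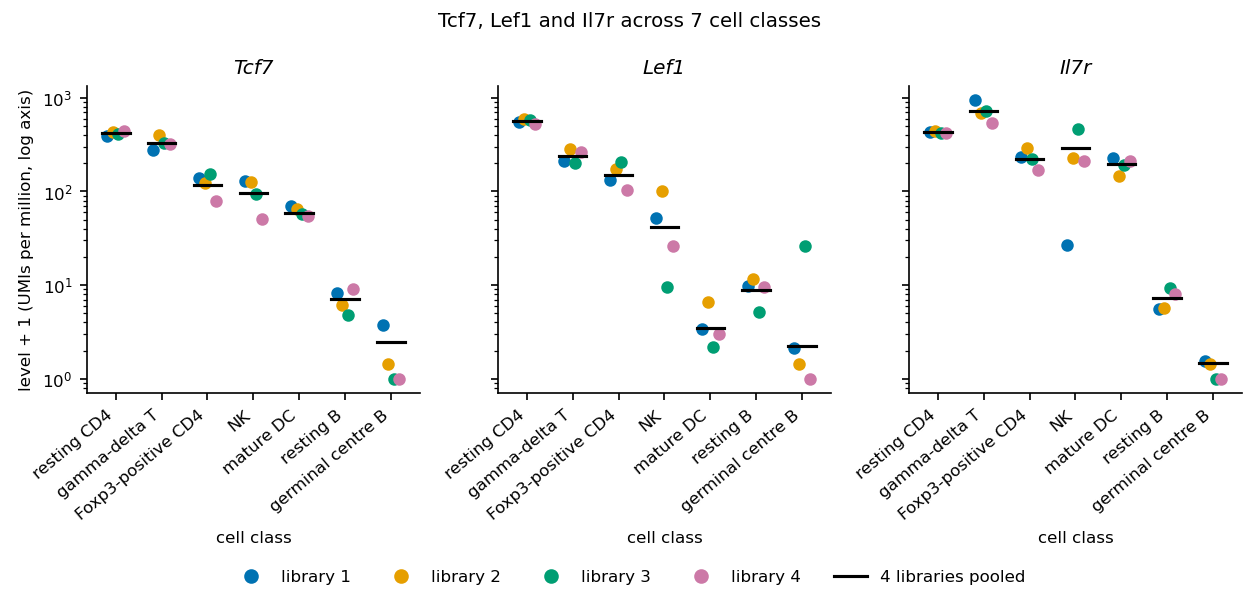
Level plus 1 (CPM, log axis) of Tcf7, Lef1 and Il7r in 7 cell classes. Each point is a library, and each bar is the level over all 4 libraries. In mature dendritic cells Il7r and Tcf7 sat above resting B cells in every library, at 194 and 58.5 pooled, while Lef1 was at 2.51.

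Satb1 (chr17:51736187-51833290, minus strand) stood at 537, 502, 477 and 423 CPM in resting CD4 cells and at 360, 359, 359 and 315 in resting CD8 cells. Resting B cells held 160, 162, 141 and 133 CPM, below both in every library. Foxp3-positive CD4 cells (154 CPM) and dividing CD8 cells (143 CPM) lay near the B cell level, and germinal centre B cells, at 21.2 CPM, far below it.

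Foxo1 (chr3:52268336-52353221, plus strand) had the narrowest range among lymphocytes. It stood at 148, 146, 134 and 149 CPM in resting CD4 cells and between 59.6 and 111 CPM pooled in the other 12 lymphocyte classes with at least 50 cells. Most neighbours in this order overlapped over libraries. Mature dendritic cells held 26.9 CPM and monocytes 9.85 from 4 counts.

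Foxp1 (chr6:98925338-99522721, minus strand) was highest in activated B cells, at 709, 643, 799 and 745 CPM, and in resting B cells, at 679, 665, 667 and 618, 2 classes that overlapped. Resting CD4 cells came next with 430, 427, 428 and 423 CPM, the smallest spread between libraries seen for any of the 9 genes in that class. Unlike Lef1, Foxp1 was measurable in mature dendritic cells (96.9 CPM), monocytes (143) and macrophages (118).

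Klf2 (chr8:72319033-72321656, plus strand) stood at 818, 866, 745 and 782 CPM in resting B cells, 581, 623, 637 and 652 in resting CD8 cells and 486, 511, 591 and 568 in resting CD4 cells. NK cells at 744 CPM overlapped resting B cells, and gamma-delta T cells at 626 overlapped all of these. Mature dendritic cells, at 21.4, 17.0, 13.1 and 36.2 CPM, and germinal centre B cells, at 62.7 CPM pooled, held the least.

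Bach2 (chr4:32238804-32586108, plus strand) was ordered by lineage in the opposite way to Tcf7 and Lef1. Germinal centre B cells held 244, 280, 199 and 264 CPM and resting B cells 171, 181, 164 and 146. Resting CD4 cells, at 80.6, 85.3, 69.1 and 78.1 CPM, and resting CD8 cells, at 63.8, 59.9, 55.3 and 50.2, were below resting B cells in every library. The matrix lists an antisense-named neighbour, Bach2os, separately. It had 35 counts in resting B cells and 7 in resting CD4 cells, and whether counting used strand is not given in the sources used here.

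Id3 (chr4:136143497-136145755, plus strand) was low in both resting T cell classes, at 66.2, 85.3, 65.8 and 74.1 CPM in CD4 cells and 55.0, 50.7, 74.1 and 63.5 in CD8 cells. It was higher in resting B cells, at 180, 182, 220 and 212 CPM, and in gamma-delta T cells, at 192, 208, 150 and 108. NK cells had 2 counts, 6.31 CPM (95% interval 0.764 to 22.8).

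In resting CD8 against resting CD4 cells, none of the 9 members was called, where 3.54% of the 9277 genes tested were, 2.02% higher and 1.52% lower. The pooled CD8 level of 8 of the 9 was below the CD4 level, by a median log2 ratio over the members of -0.38, beside -0.07 over all genes tested. The largest were Foxo1 at -0.50 (-0.56 to -0.45 over libraries) and Satb1 at -0.47 (-0.58 to -0.41), each below 0 in 4 of 4 libraries. Klf2 had the other sign, at 0.19 (0.11 to 0.29). With scaling by trimmed mean of M values (TMM), which lets most genes sit at no difference, the all-gene median of this comparison moved by 0.10.

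The T cell comparisons that follow share their resting cells, so their ratios are not independent of each other. Receptor-activated T cells were gated on at least 2 of Nr4a1, Egr2, Egr3, Irf4, Myc, Nfkbid and Tnfrsf9, genes induced by the T cell receptor, and numbered 160 CD4 and 323 CD8 cells. The gate allowed fewer than 2 dividing genes and did not exclude memory genes or, in CD4 cells, follicular helper genes. Resting cells held none of these. A dividing gene was seen in 12 of the activated CD4 and 28 of the activated CD8 cells. The part of this difference in gating in the ratios was not tested. Id3 stood at 300, 284, 470 and 304 CPM in the CD4 cells and at 256, 363, 369 and 303 in the CD8 cells. The values of both activated classes lay above every resting T cell value.
In receptor-activated CD4 cells Id3 rose 4.79-fold over resting CD4 cells, a log2 ratio of 2.26 (counting interval 2.06 to 2.46, libraries 1.73 to 2.84). In receptor-activated CD8 cells it rose 5.23-fold over resting CD8 cells, a log2 ratio of 2.39 (2.25 to 2.52, libraries 2.22 to 2.84). With cells thinned to 1500 UMIs, Id3 was seen in 31.2% of activated and 9.95% of resting CD4 cells, and in 29.7% of activated and 7.80% of resting CD8 cells.

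Klf2 had the opposite sign in the same cells. It stood at 324, 299, 303 and 230 CPM in receptor-activated CD4 cells, below every resting CD4 library, and fell 1.88-fold, a log2 ratio of -0.91 (counting interval -1.08 to -0.75, libraries -1.30 to -0.59). In receptor-activated CD8 cells it stood at 424, 409, 475 and 348 CPM, also below every resting CD8 library, but its log2 ratio of -0.62 (libraries -0.91 to -0.42) was not called. Klf2 in CD4 cells was no longer called with cells thinned to 1500 UMIs (-0.95), and in CD8 cells it was called lower with stricter gates (-1.01). The difference between the CD4 and CD8 ratios was not tested.

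Id3 and Klf2 were the only members called in receptor-activated CD4 cells, 2 of 9, where 5.31% of genes were called, 4.06% higher and 1.25% lower. Id3 was the only one called in receptor-activated CD8 cells, where 3.27% of genes were, 2.57% higher and 0.701% lower. The median log2 ratio over the members was -0.29 in each class, beside 0.17 and 0.10 over all genes tested. Of the other members, Lef1 stood at -0.79 in CD4 and -0.53 in CD8 cells, Il7r at -0.60 and -0.29, and Foxo1 at -0.55 and -0.31. Bach2, at 0.02 and 0.09, and Foxp1, at -0.18 and -0.03, were closest to no difference, and with TMM scaling Bach2 stood at -0.23 and -0.07. TMM scaling moved the all-gene median by -0.25 in CD4 cells, where it added Lef1 (-1.04) and Il7r (-0.86) to the calls, and by -0.16 in CD8 cells.

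Among 20 other naive and quiescence genes, 4 fell in receptor-activated CD8 cells and 4 in receptor-activated CD4 cells, and none rose. Those named by size include S1pr1, the receptor for node exit and a known KLF2 target, at -1.17 in CD4 and -0.87 in CD8 cells. Tsc22d3, a glucocorticoid-induced gene, stood at -1.48 and -1.13. Of the genes opposing the naive state, 7 of 12 tested rose in the CD4 cells, among them Il2ra, a chain of the interleukin 2 receptor, at 4.92, and 5 of 11 in the CD8 cells, among them Cd69, an early activation marker that holds cells in the node, at 2.23.

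Other signals moved with the activation gate. Of the dissociation stress genes, 7 of 10 tested rose in receptor-activated CD4 cells and 7 of 11 in CD8 cells, with Egr1 at 4.17 and 3.85. Their summed level over 14 genes was 2223 CPM (2072 to 2342 by library) in activated and 1130 (1020 to 1205) in resting CD4 cells, and 1574 (1288 to 1714) against 828 (743 to 891) in CD8 cells. The 5 B cell markers outside the gates, none of them at 0, summed to 620 CPM (303 to 1197) against 345 (306 to 405) in CD4 cells and 755 (516 to 1291) against 329 (294 to 350) in CD8 cells. The 5 myeloid markers outside the gates summed to 377 CPM (107 to 846) against 69.2 (57.4 to 75.4) in CD4 cells and 182 (129 to 259) against 68.8 (64.9 to 71.9) in CD8 cells, with 1 of the 5 at 0 in each activated class. Without cells that held both a Cd74 and an Igkc UMI, Id3 stood at 2.30 and 2.32 and Klf2 at -0.86 and -0.59 in CD4 and CD8 cells. The part of the stress genes in these ratios was not tested.

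**Figure D3:**
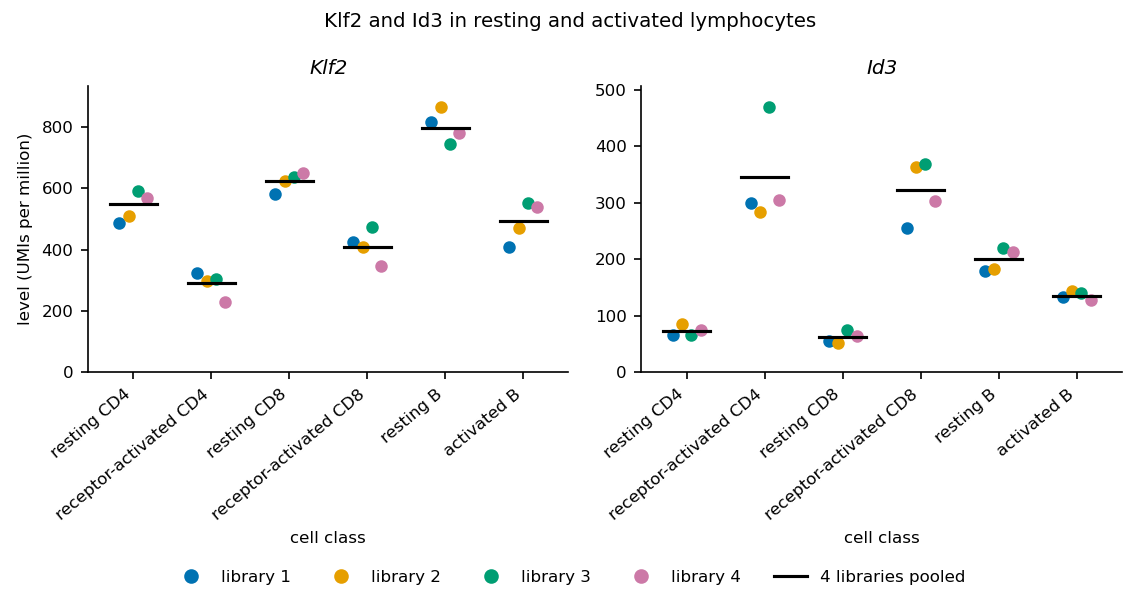
Level (CPM) of Klf2 and Id3 in resting and receptor-activated CD4, CD8 and B cells. Each point is a library. Id3 was higher in activated than in resting T cells in all 4 libraries, at 345 against 72.1 pooled in CD4 and 322 against 61.6 in CD8 cells, and lower in activated than in resting B cells, at 136 against 201.

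Activated B cells, gated on at least 2 of Nr4a1, Egr2, Egr3, Irf4, Myc, Nfkbid, Ccl3 and Ccl4, numbered 573 against 5513 resting B cells. A dividing gene was seen in 26 of the activated and in none of the resting B cells, and its part in the ratios was not tested. None of the 9 members was called in them, where 2.67% of genes were, 2.07% higher and 0.603% lower. Klf2 stood at 409, 471, 554 and 540 CPM, below every resting B library, with a log2 ratio of -0.70 (counting interval -0.77 to -0.62) that was below 0 in 4 of 4 libraries. It was called lower with TMM scaling (-0.83), the stricter cell filter (-0.94) and stricter gates (-1.15). Id3 stood at 133, 144, 140 and 128 CPM, also below every resting B library, with a log2 ratio of -0.57 (-0.71 to -0.43, libraries -0.73 to -0.35), the opposite sign to the T cells. Satb1, at 0.34, was above 0 in 4 of 4 libraries, Bach2 stood at -0.14 and Foxo1 at -0.02. The summed level of the dissociation stress genes was 2039 CPM (1877 to 2159) against 1547 (1434 to 1620), with 2 of 11 genes tested called higher.

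**Figure D4:**
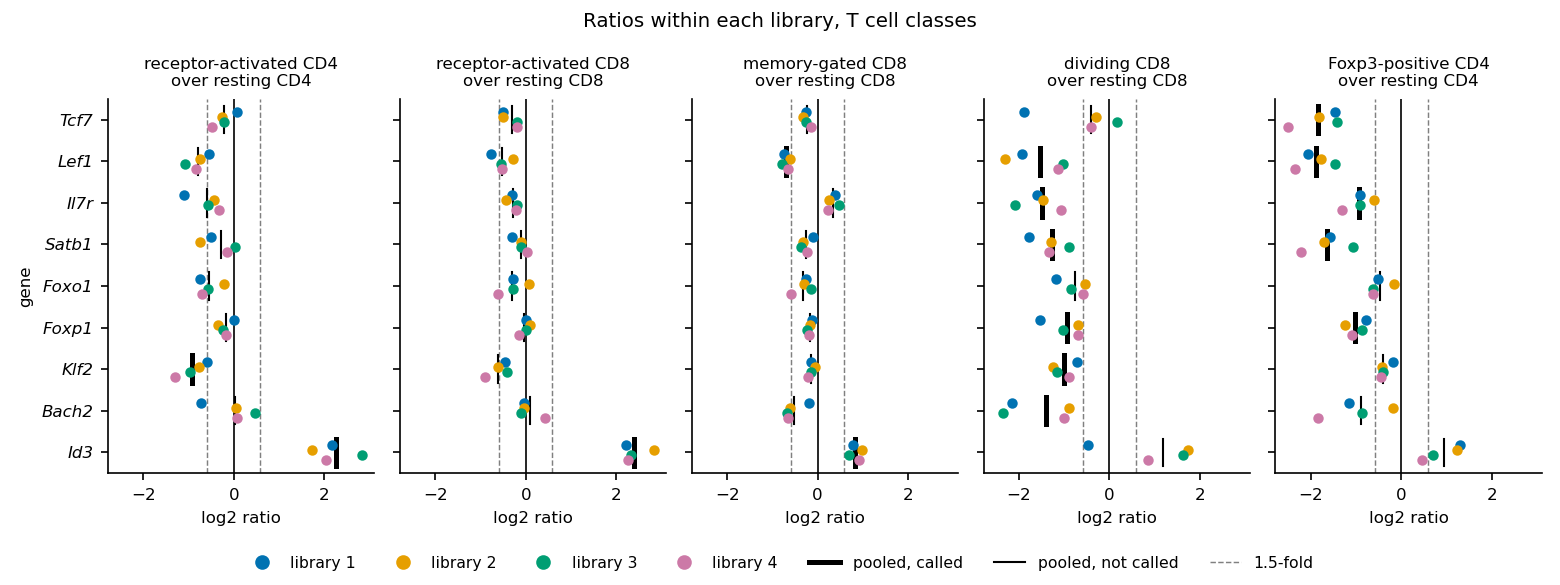
Log2 ratio of each of the 9 genes in 5 T cell classes against their resting counterparts. Points are libraries, bars are the ratio over all libraries, thick where called, and dashed lines mark 1.5-fold. Id3 lay above the upper line in every library of both receptor-activated classes, and Tcf7 and Lef1 lay below the lower line in every library of Foxp3-positive cells.

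Memory-gated CD8 cells, 608 cells with at least 2 of Ccl5, Cxcr3, Il2rb, Klrc1 and Klrk1, had 2 members called. The memory gate allowed fewer than 2 receptor-activation and fewer than 2 dividing genes per cell, whereas resting CD8 cells held none. A dividing gene was seen in 47 of the 608 cells, and the median depth was 9163 UMIs against 6245 in resting CD8 cells. The part of this difference in gating in the ratios was not tested. Lef1 fell 1.61-fold, a log2 ratio of -0.69 (counting interval -0.77 to -0.61, libraries -0.79 to -0.61). Id3 stood at 94.2, 99.8, 121 and 120 CPM, above every resting CD8 library, and rose 1.77-fold, a log2 ratio of 0.83 (0.68 to 0.98, libraries 0.70 to 0.98). These were 2 of 9 members, where 3.32% of genes were called, 2.3% higher and 1.03% lower, and the members' median was -0.24 beside -0.01 over all genes. Il7r, at 0.34, was above 0 in 4 of 4 libraries, and the other 6 members, from -0.15 for Klf2 to -0.51 for Bach2, below 0 in 4 of 4. Thinning to 1500 UMIs (Lef1 -0.79, Id3 0.62) and the 2-fold rule each left neither gene called, and Lef1 was not called under the stricter cell filter (-0.55). Bcl2, the survival gene downstream of the interleukin 7 receptor, rose with a log2 ratio of 1.10, from 154 to 331 CPM, the only one of 10 genes of that pathway called. Of the opposing genes, 7 of 13 tested rose, among them Tbx21, which encodes the effector factor T-bet, at 13.7 against 0.147 CPM. Genes near 0 in resting CD8 cells, such as Tbx21, passed the count rule through the memory-gated cells and could only be called higher. Resting CD8 cells were also picked for lacking the memory-gate genes, and the effect of this on the count was not tested. Fcer1g and Tyrobp, 2 of 3 tested myeloid markers and both also used by NK cells, were called higher at 20.8 and 17.0 CPM.

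Dividing CD8 cells, 52 cells with at least 2 of Mki67, Top2a, Birc5, Cdk1 and Ccna2, had the most members called among the CD8 classes. Lef1 (-1.55), Il7r (-1.48), Bach2 (-1.41, from 25 counts), Satb1 (-1.28), Klf2 (-1.01) and Foxp1 (-0.94) fell, 6 of 9, where 15.8% of genes were called, 11.7% higher and 4.03% lower. The members' median was -1.01 beside 0.18 over all genes tested, a median that TMM scaling moved by -0.37. Tcf7 was not called: it stood at 83.0, 268, 371 and 239 CPM, overlapping the resting CD8 range, with a log2 ratio of -0.41 (libraries -1.89 to 0.17). Id3 stood at 1.18 and was below 0 only in library 1 (-0.47), and without that library it was called higher at 1.43. These cells had a median of 18929 UMIs against 6245 in resting CD8 cells, and with every cell thinned to 1500 UMIs none of the 9 was called (Bach2 -2.23, Lef1 -0.97, Klf2 -0.81, Satb1 -0.76, Il7r -0.74, Foxp1 -0.53). Klf2 was also not called without cells holding Cd74 and Igkc UMIs (-0.87). The dissociation stress genes summed to 1618 CPM (1333 to 1871) against 828 in resting CD8 cells and the myeloid markers outside the gates, 1 of 5 at 0, to 266 (106 to 433) against 68.8, and their part in the ratios was not tested. Of 20 other naive genes, 6 fell, led by Pik3ip1 at -2.16 and S1pr1 at -2.02. Gzmb, a cytotoxic granule protease, stood at 210 against 0.147 CPM.

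Dividing CD4 cells numbered 26. Lef1 (-2.00) and Foxp1 (-1.50) fell, 2 of 9, where 15.3% of genes were called, 10.8% higher and 4.47% lower. Bach2 (-1.90, from 10 counts), Satb1 (-1.75), Il7r (-1.52), Foxo1 (-0.76), Tcf7 (-0.59), Klf2 (-0.51) and Id3 (0.36) were not called. Their median depth was 13116 UMIs against 5337 in resting CD4 cells, and with thinning Lef1 (-1.89) and Foxp1 (-0.77) were not called while Il7r (-1.69) and Satb1 (-3.25) were.

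Foxp3-positive CD4 cells numbered 171. Foxp3 encodes the defining factor of regulatory T cells. The Foxp3 gate did not exclude the genes that gate activation, memory, follicular helper cells or division, whereas resting CD4 cells held none of them. Lef1, described above, fell 3.71-fold, a log2 ratio of -1.89 (counting interval -2.09 to -1.70, libraries -2.36 to -1.48), and Tcf7 fell 3.58-fold, at -1.84 (-2.06 to -1.63, libraries -2.52 to -1.43). Satb1 fell at -1.63 (179, 154, 228 and 90.7 CPM), Foxp1 at -1.02 (251, 179, 233 and 198 CPM) and Il7r at -0.94 (231, 287, 223 and 169 CPM), each below every resting CD4 library. These were 5 of 9 members, where 13.2% of genes were called, 11.3% higher and 1.91% lower, and the members' median was -0.94 beside 0.30 over all genes. Id3, at 0.94, was above 0 in 4 of 4 libraries, while Klf2 stood at -0.40, Foxo1 at -0.46 and Bach2 at -0.88 with libraries from -1.84 to -0.19.

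The class was mixed in cell cycle, since 46 of the 171 cells (26.9%) held a dividing gene. Against resting CD4 cells, which were gated to hold none, 9 of 10 cell cycle genes rose, a direction that the gate favours. Without the 46 cells, Tcf7 stood at -1.15 and Lef1 at -1.18, both called, and Id3 was called higher at 1.40. Satb1 (-0.77), Il7r (-0.65) and Foxp1 (-0.37) were then not called. With cells thinned to 1500 UMIs, Il7r (-0.48) and Foxp1 (-0.72) were not called. Of the other naive genes, 8 of 20 fell, led by Dapl1 at -3.46 and Igfbp4 at -2.42. Cish, a target of the STAT5 factor that interleukin 2 and 7 receptors activate, rose from 4.77 to 73.8 CPM. Markers of other cells were also higher in this class, with B cell markers outside the gates at 968 CPM (466 to 2438) against 345 and myeloid markers at 512 (142 to 1351) against 69.2. None of the 5 genes of either list was at 0, and their part in the ratios was not tested.

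Follicular helper-gated CD4 cells, 121 cells with at least 2 of Cxcr5, Pdcd1, Izumo1r, Tox2 and Icos, had none of the 9 called, where 1.94% of genes were, 1.32% higher and 0.614% lower. This gate allowed fewer than 2 receptor-activation and fewer than 2 dividing genes and did not exclude memory genes, whereas resting CD4 cells held none. A dividing gene was seen in 12 of the 121 cells, and the part of this difference in the ratios was not tested. Klf2 stood at 402, 287, 461 and 517 CPM and its log2 ratio was -0.46, Lef1 stood at -0.47, Foxo1 at -0.55, Tcf7 at -0.23 and Id3 at 0.85 with libraries from -0.39 to 1.18. Red cell markers in this class summed to 27229 CPM, with libraries from 8.39 to 76344. Only 2 of the 121 cells had at least 1% globin UMIs.

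Gamma-delta T cells, 224 cells with a Trdc UMI, differed from resting CD4 cells in 2 of 9 members, where 5.55% of genes were called, 4.7% higher and 0.854% lower. Lef1 fell at -1.25 (209, 285, 200 and 264 CPM) and Bach2 at -0.97 (37.6, 52.9, 22.8 and 51.2 CPM, 54 counts in all), which was not called with thinning (-0.55) or with the stricter cell filter (-1.02). Il7r, at 0.75, and Id3, at 1.12, were above 0 in 4 of 4 libraries. Both were called higher without library 4 (0.88 and 1.31), where 2 qualifying libraries were enough. Klf2 stood at 0.19 and turned to -0.11 with TMM scaling, and Satb1 stood at -0.99. Myeloid markers outside the gates, none at 0, summed to 465 CPM (240 to 646) against 69.2 in resting CD4 cells, and dissociation stress genes to 1513 CPM (1295 to 1759) against 1130. The gamma-delta gate did not exclude the genes that gate activation, memory, follicular helper cells or division, whereas resting CD4 cells held none of them. The 20 genes opposing the naive state summed to 4451 CPM (2080 to 5606) against 435, and the cell cycle genes to 895 (411 to 1135) against 395. The part of these signals in the ratios was not tested.

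NK cells, 55 cells with at least 2 of Ncr1, Klrb1c, Klre1, Klra7 and Klra8 and without CD3 or B lineage UMIs, held Klf2 in every library. It stood at 944, 654, 753 and 723 CPM, above every resting CD8 library, with a log2 ratio of 0.25 that turned to -0.46 with TMM scaling. Tcf7 (-1.76, 30 counts), Lef1 (-3.32, 13 counts), Satb1 (-1.05) and Id3 fell against resting CD8 cells, 4 of 9, where 15.3% of genes were called, 7.29% higher and 7.97% lower. The Id3 ratio of -3.29 rests on 2 counts and has a counting interval of -6.34 to -1.43. Id2, the paralog of Id3 that NK cells depend on, rose to 1211 from 92.4 CPM, a log2 ratio of 3.71. TMM scaling moved the all-gene median by -0.71 in this comparison and added Foxp1 (-1.66) and Foxo1 (-1.31) to the calls. With cells thinned to 1500 UMIs, Satb1 (-1.07) was not called and Foxp1 (-1.27) was called lower, while Tcf7 (-2.04) and Lef1 (-2.19) stayed called.

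In resting B against resting CD4 cells, 6 of 9 members were called, where 22.8% of genes were, 15% higher and 7.78% lower. Tcf7, Lef1 and Il7r fell 67.6-, 70.0- and 67.2-fold, and Satb1 fell 3.26-fold, a log2 ratio of -1.70 (libraries -1.76 to -1.63). Bach2 rose 2.12-fold, at 1.08 (counting interval 0.94 to 1.23, libraries 0.90 to 1.25), and Id3 rose 2.79-fold, at 1.48 (1.33 to 1.63, libraries 1.10 to 1.74). Klf2 (0.54) and Foxp1 (0.62) were above 0 in 4 of 4 libraries and Foxo1 (-0.49) below 0 in 4 of 4, none of them called. The median over the members was -0.49 beside 0.15 over all genes. The E protein gene Tcf4 rose from 5.87 to 174 CPM, and Id2, a paralog of Id3, fell from 47.9 to 12.2 CPM.

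Germinal centre B cells, 268 cells with at least 2 germinal centre genes, among them S1pr2, Mybl1, Rgs13 and Gcsam, came almost wholly from libraries 1 and 2, with 124 and 136 cells against 5 and 3 in libraries 3 and 4. Klf2 stood at 73.9, 55.9, 0 and 66.0 CPM and fell 12.7-fold against resting B cells, a log2 ratio of -3.67 (counting interval -3.85 to -3.49). Satb1 fell 6.95-fold, at -2.80, and Foxp1 fell 4.72-fold, at -2.24, with 157, 125, 24.9 and 297 CPM by library. Tcf7 and Il7r were also called lower from 6 and 2 counts, with ratios of -2.09 (-3.56 to -0.93) and -3.70 (-6.76 to -1.82). That made 5 of 9, where 24.2% of genes were called, 9.07% higher and 15.1% lower. Germinal centre cells of libraries 3 and 4 held only 80277 and 30308 UMIs. At the resting B levels of Tcf7 (6.20 CPM) and Il7r (6.33 CPM), a count of 0 there needs no fall. These 2 calls therefore rest on libraries 1 and 2. With cells thinned to 1500 UMIs, Foxp1 (-1.50) and Tcf7 (-0.36) were not called.

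Bach2 and Foxo1 were not among the members that fell in germinal centre B cells. Bach2 was above 0 in 4 of 4 libraries with a log2 ratio of 0.69 (counting interval 0.59 to 0.78, libraries 0.28 to 0.86) and was seen in 34.0% of germinal centre and 21.2% of resting B cells after thinning, where Klf2 was seen in 8.58% and 62.9%. Foxo1 stood at -0.11 and Id3 at -0.22. Lef1 was not called, at 1.22 CPM pooled with libraries from 0 to 24.9, but was called lower with thinning (-1.61) and with the stricter cell filter (-2.43). In libraries 1 and 2 alone, Klf2 stood at -3.72, Lef1 at -3.70, Il7r at -3.21, Satb1 at -2.92, Foxp1 at -2.27 and Tcf7 at -2.05. In the same 2 libraries Bach2 stood at 0.58, Foxo1 at -0.22 and Id3 at -0.06. A dividing gene was seen in 212 of the 268 cells (79.1%). Of the other naive genes, 17 of 18 tested fell, among them Ccr7, which encodes a receptor for entry into nodes and stood at 2.68 against 85.8 CPM. Bcl2 fell from 140 to 5.35 CPM.

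**Figure D5:**
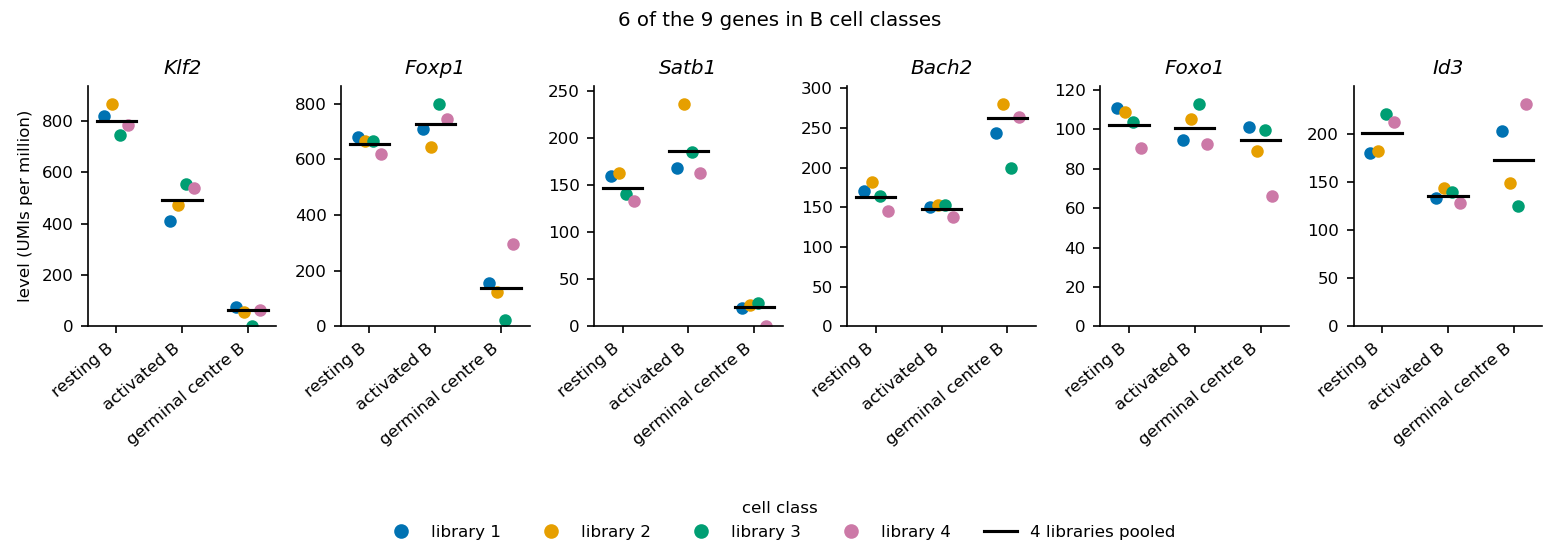
Level (CPM) of 6 of the genes in resting, activated and germinal centre B cells. Each point is a library, with 5 and 3 germinal centre cells in libraries 3 and 4. Klf2 was at 798, 493 and 62.7 pooled in the 3 classes and Bach2 at 163, 148 and 263.

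Counted per cell after thinning to 1500 UMIs, a mean of 3.27 of the 9 members were seen in resting CD4 cells, 2.84 in resting CD8 cells, 2.04 in resting B cells, 2.09 in Foxp3-positive CD4 cells, 1.88 in dividing CD8 cells and 1.05 in germinal centre B cells. At least 3 members were seen in 71.4% of resting CD4, 32.7% of Foxp3-positive and 6.72% of germinal centre B cells. None was seen in 2.19% of resting CD4 and 32.1% of germinal centre B cells. Receptor-activated CD4 and CD8 cells, at means of 2.65 and 2.73, lay between the resting and the Foxp3-positive T cells.

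Over the 16 classes and 5262 genes, those most like Tcf7 included Trbc2 (r = 0.95) and Il7r (0.95), and those most like Lef1 included Trbc2 (0.98) and Nsg2 (0.97). Satb1 was most like Scml4 (0.96), Gimap3 and Dennd2d, and Il7r most like Tcf7 (0.95), Esyt2 and Peli1 (0.93 each). Klf2 was most like Add3, Ifi206 and Shisa5 (0.95 each), Foxp1 most like Gm20696 (0.93), and Foxo1 most like Ets1 (0.93). Bach2 was most like Cd37 (0.91) and Id3 most like Tex10 (0.93). These are likenesses over 16 class levels.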

How the data were processed

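Nodes of 4 mice were profiled, and the authors deposited raw UMI counts per gene and barcode in 1 pooled matrix, made with Cell Ranger 5.0.0 on mm10, per the file headers and the submitters' processing notes. The count matrix holds library numbers 1 to 4 without a link to mice, so no comparison between treatments was possible and libraries were not treated as replicates of a group. Barcodes holding 300 genes or more and no more than 10% mitochondrial UMIs were classed by marker UMIs that exclude the 9 members, and counts were summed by class and library. Doublets were not removed, except in an alternative. Ratios used totals per class in Python 3.11.15 (numpy 2.4.6, scipy 1.17.1, pandas 2.3.3, scanpy 1.11.5), with edgeR 4.0.16 for TMM factors only. Across 13 comparisons of classes, a call asked for 1.5-fold in every library with 10 counts, in at least 3 libraries, or 2 with 1 left out. The calculation was tested on simulated data. Shares and intervals are exact at 95% and cover counting error only, and a count of 0 allows 3 counts.

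The members and gene lists were chosen with earlier results of these data known. The members were named by symbol, and of each other list the text names up to 4 called genes by size of ratio. The genes most alike were the 3 with the highest Pearson's r. Some marker and comparison genes of these lists are not reported here.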

Additional observations from a re-analysis of the deposited data

Results flagged for a closer look

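The Id3 ratio on activation had opposite signs in T and B cells. Its log2 ratio was 2.26 in receptor-activated CD4 cells and 2.39 in receptor-activated CD8 cells, above 0 in 4 of 4 libraries, and -0.57 in activated B cells, below 0 in 4 of 4 libraries. It was called in both T cell classes and not called in B cells. The difference between the lineages was not tested.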

How the results depend on the processing

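No paired analysis was possible because the library numbers are not tied to mice or groups. Of the ratios of single members under alternatives, 1506 stayed within their counting interval and 228 moved beyond it. Part of the 1506 could not move, since some alternatives leave the cells of a comparison unchanged. Stricter gates, for example, kept the same Foxp3-positive and resting CD4 cells. With TMM scaling alone, more ratios moved than stayed. The totals are therefore not a measure of stability. The sign turned in 0 ratios of called members and in 32 of members not called, among them Klf2 in NK cells. Counts of called members changed by over 1.5 times as follows. With TMM scaling, 4 members were called in receptor-activated CD4, 7 in dividing CD4 and 1 in activated B cells. With the stricter cell filter (500 genes, 5% mitochondrial) the count was 1 in memory-gated CD8, gamma-delta T and activated B cells. With thinning it was 0 in memory-gated CD8, 0 in dividing CD8, 3 in Foxp3-positive CD4 and 3 in germinal centre B cells. At 2-fold it was 0 in memory-gated CD8, 2 in dividing CD8, 3 in Foxp3-positive CD4, 1 in receptor-activated CD4 and 0 in gamma-delta T cells. With stricter gates it was 2 in receptor-activated CD8, 4 in 10 follicular helper-gated and 1 in activated B cells. Leaving out 1 library gave 0 to 1 in follicular helper-gated cells (1 without library 1 and without library 3), up to 5 in dividing CD4 cells and up to 4 in gamma-delta T cells, both without library 4. Without cells holding Cd74 and Igkc UMIs it was 5 in dividing CD4 and 1 in gamma-delta T cells. Of alternatives chosen after seeing the data, libraries of at least 20 cells gave 1 in follicular helper-gated cells, a T cell gate allowing 1 B lineage UMI gave 1 in memory-gated CD8 and 4 in gamma-delta T cells, and leaving out cells with a dividing gene gave 3 in Foxp3-positive cells. Depth limits Bach2 in dividing CD8 cells (25 counts) and Id3 in NK cells (2 counts).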
